A study of Homo sapiens with 2 samples.

Results

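Low-complexity cells were droplet barcodes with many transcripts spread over few genes: at least 5000 unique molecular identifiers (UMIs, 1 per captured molecule), 500 to fewer than 1500 genes detected, and 1% to 20% of UMIs on mitochondrially encoded (MT-) genes. There were 560 such barcodes of 5706 in all, 194 of 2574 in the control library and 366 of 3132 in the squashed library. They were described against the 2580 gene-rich barcodes, 1460 control and 1120 squashed, that had at least 1500 genes within the same UMI and MT- limits. The values that chose them are the UMI count, the number of genes and the MT- share. Every difference from the gene-rich cells therefore follows in part from the choice, and is given here as a description.

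Both libraries came from A549, a widely used epithelial cell line derived from a human adenocarcinoma of the lung. The control cells had grown in 2D culture, and the squashed cells had been confined with polydimethylsiloxane micropillars. In both arms live cells were sorted, after 48 h of recovery, for loss of a chromosome reporter (ChReporter), a state of about 1 cell in 500, so the controls are reporter-negative cells as well. The question was which transcripts change in such cells after confinement. Each arm was 1 library, so no difference has a replicate check, no test was made, and intervals are exact 95% Clopper-Pearson intervals that cover counting error only.

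A cell's messenger RNA is spread very unevenly over its genes. Ribosomal protein genes take a large part of it, and most of their transcripts begin with a run of pyrimidines, the 5′ terminal oligopyrimidine (TOP) motif, through which their translation is regulated together. Other RNAs, such as MALAT1 and NEAT1, stay in the nucleus, where MALAT1 sits in nuclear speckles and NEAT1 builds paraspeckles. Messenger RNAs with AUUUA repeats in the 3′ untranslated region, written ATTTA in DNA, are often short-lived.

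Start-site sequences of 6 genes that were higher in the low-complexity cells are shown because pyrimidine starts were common among the ribosomal protein genes that fill these cells. Each is 30 bases from RefSeq on GRCh38.p14, 5′ to 3′ on the gene's strand, with the annotated start at base 16. Capitals mark a run that opens with C within 3 bases of the start and goes on for at least 4 more C or T.
RPL28 (chr19:55385917-55385946, plus strand): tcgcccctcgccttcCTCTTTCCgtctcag
SNHG32 (chr6:31834901-31834930, plus strand): ctcgccattttagttCTTTTTgcgaagtgg
VTN (chr17:28370293-28370322, minus strand): ctcttctccagtgccCTCCTTCCCTgtctc
NPC2 (chr14:74493291-74493320, minus strand): gggcggccgctgcttCTTTCCCgagcttgg
SH3BGRL3 (chr1:26280071-26280100, plus strand): gagcacggcggcggcgtcgtctcccggcag
ANXA10 (chr4:168092522-168092551, plus strand): ctcaagtcatgctgtatccagatttgcttt
The first 4 hold such a run and the last 2 do not. Over all 12 genes with the highest common ratios, these 4 were the only ones with a run in the 1 window read per gene. The window of GAS5 lay wholly outside the coordinates of that gene, so its count as a gene without a run is uncertain. A run was present in 79.1% of the 67 cytosolic ribosomal protein genes that had a start window and in 20% of 3043 other measured genes. Of all 27305 genes with a window, 16% had a run in any of their windows, and 13% of all 35116 windows held one.

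Sequences of 4 genes that were far lower in the low-complexity cells are shown for their ATTTA motifs, which are in capitals. Each is a 30-base stretch of the 3′ untranslated region of the GENCODE 44 canonical transcript on GRCh38, on the gene's strand.
ZFP36L1 (chr14:68788345-68788374, minus strand): cttATTTAacttatcaaaacgtATTTAttg
LGR4 (chr11:27366223-27366252, minus strand): atgtgggaaggATTTATTTAcagtgtgttg
TOB1 (chr17:50862645-50862674, minus strand): taattgtataATTTAATTTAgtacaaagtt
ZFAND5 (chr9:72353770-72353799, minus strand): tgaaaATTTAgaagttgaagATTTAgaagg
The whole 3′ untranslated regions held 8 ATTTA in ZFP36L1, 8 in LGR4, 4 in TOB1 and 13 in ZFAND5, counted on the gene's strand with overlaps allowed. Of the 8 genes with such a region among the 12 lowest, 6 held at least 3, while ASPM held 1 and CENPF 0. At least 3 were present in 45.5% of 3570 measured genes with such a region, ribosomal protein genes left out. Both motifs were chosen for search after the values had been seen, and a match is a description of the letters only.

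The low-complexity cells made up 11.7% of the control barcodes within the UMI and MT- limits (194 of 1654, interval 10.2 to 13.4) and 24.6% of the squashed ones (366 of 1486, 22.5 to 26.9). That excess held among shallow barcodes. From 5000 to under 7500 UMIs the share was 48.8% in control (41.9 to 55.7) and 68.9% in squashed (63.5 to 74.0), and from 7500 to under 10000 UMIs it was 16.9% (12.5 to 22) and 40.2% (34.3 to 46.3). Among barcodes of 10000 to under 15000 UMIs the shares were 9.31% (6.79 to 12.4) and 11.5% (8.32 to 15.3), with overlapping intervals. From 15000 UMIs there were 4 of 729 in control and 0 of 551 in squashed, where 3 counts would be 0.544% and the exact upper limit is 0.667%. When the minimum and the thinning were both raised to 10000 UMIs, the shares were 3.90% in control (2.87 to 5.17) and 4.44% in squashed (3.19 to 6.0), again with overlapping intervals. The difference between the libraries was thus seen only below 10000 UMIs in these ranges and settings.

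"Many UMIs" holds only against the 5000 minimum. Median UMIs were 7357 in control and 6878 in squashed low-complexity cells, against 14896 and 14870 in gene-rich cells, and median genes were 1230 and 1258 against 3074 and 2820. For every comparison below, each barcode was thinned at random to 5000 UMIs. At that equal depth the low-complexity cells still showed fewer genes, with medians of 924 in control and 1008 in squashed, against 1616 and 1531. The classes overlapped, since low-complexity cells reached 1482 and 1452 genes and gene-rich cells went down to 685 and 822. With the ceiling of 1110 genes among 5000 UMIs, 142 of 194 control and 265 of 366 squashed low-complexity cells were chosen again. The 50 most abundant genes of a low-complexity cell took, at the median, 49.4% of its UMIs in the control library and 46.5% in the squashed one, against 35.7% and 37.2% in gene-rich cells.

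**Figure D1:**
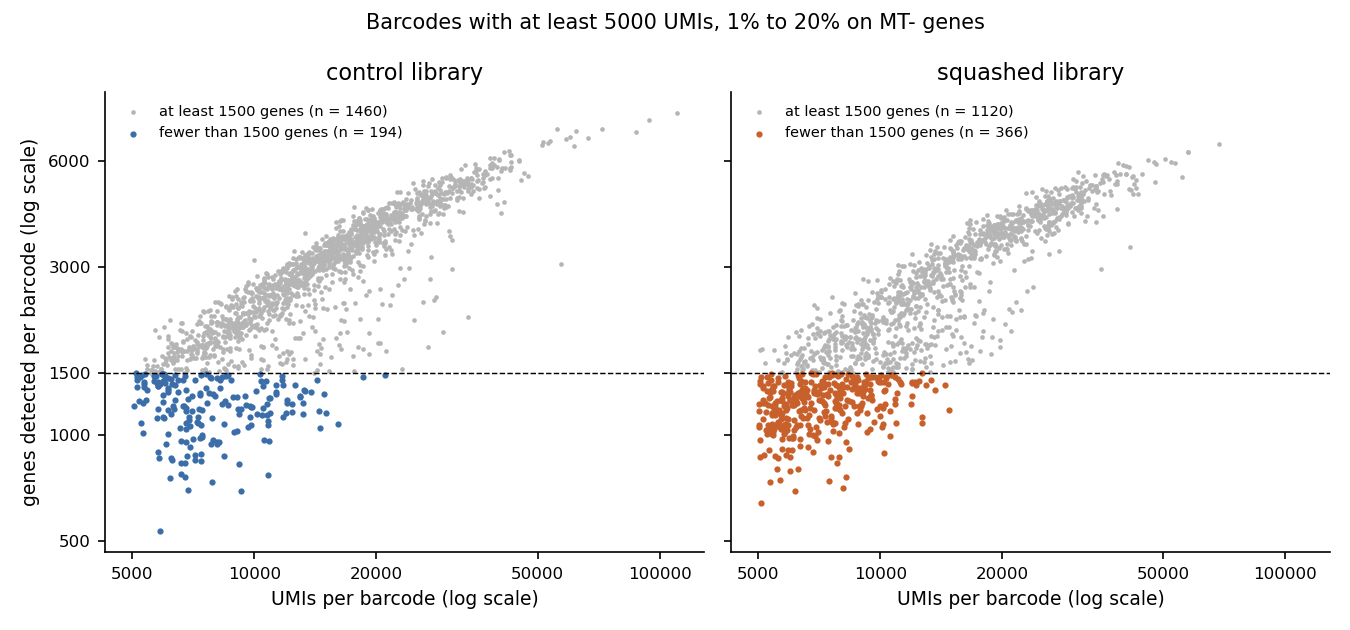
UMIs (x axis) against genes detected (y axis), both on log scales, for each barcode within the UMI and MT- limits in the control (left) and squashed (right) library; the dashed line is the 1500-gene ceiling and coloured points are the low-complexity cells. The 194 control and 366 squashed points lie at the shallow end, with medians of 7357 and 6878 UMIs, and continue without a gap into gene-rich barcodes that carry few genes for their UMIs.

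The label was checked against marker genes. All 11 erythroid markers stood at 0 UMIs in both sets of low-complexity cells, and the 9 fibroblast markers summed to 2.06 and 4.37 CPM in control and squashed, where CPM is a gene's UMIs scaled to the total of the pooled cells. Of 11 immune markers only CD68, a lysosomal membrane protein also made outside the immune system, was measured, at 38.1 CPM in control and 31.7 in squashed, against 11.9 and 21.4 CPM in gene-rich cells. The lists of 6 endothelial and 7 platelet markers had at most 1 measured gene each, and summed to 30.9 and 9.84 CPM and to 71.1 and 47.0 CPM, against 44.8 and 9.64 and against 79.2 and 46.2 in gene-rich cells. Their part in the results was not tested. The 6 simple epithelial keratins, markers of epithelial cells, summed to 8654 CPM in control and 4240 in squashed low-complexity cells, against 11269 and 5034 in gene-rich cells. In a single cell line no cell type lacks these genes, so the level that free RNA gives could not be set, and a gene at a few UMIs per pool may be at that level. The libraries shared 4 barcode sequences, of which 0 were control and 1 was a squashed low-complexity cell. Of 16 control and 15 squashed barcodes called doublets, 0 were low-complexity cells.

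The 4 genes named beforehand as markers of these cells, with earlier results of these data known, all stood higher in them in both libraries. SH3BGRL3 (ENSG00000142669, chr1:26280086-26281522), a small thioredoxin-fold protein, was at 371 CPM in control low-complexity cells against 179 CPM in control gene-rich cells, and at 416 against 206 CPM in squashed. ANXA10 (ENSG00000109511, chr4:168092537-168187736), a member of the calcium- and lipid-binding annexins, was at 43.3 against 16 CPM in control and at 56.3 against 23.9 CPM in squashed. These are log2 ratios of 1.05 (0.88 to 1.22) and 1.02 (0.88 to 1.15) for SH3BGRL3. For ANXA10 they are 1.44 (0.89 to 1.95) and 1.24 (0.85 to 1.62). AKR1B1 (ENSG00000085662, chr7:134442356-134459284), aldose reductase, was at 2314 against 1206 CPM in control and at 2130 against 1284 CPM in squashed, log2 ratios of 0.94 (0.87 to 1.01) and 0.73 (0.67 to 0.79). MAP1B (ENSG00000131711, chr5:72107234-72209565), which binds microtubules, was at 411 against 257 CPM and at 473 against 293 CPM, log2 ratios of 0.68 (0.52 to 0.84) and 0.69 (0.57 to 0.81).

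The markers were also compared within ranges of depth, which were chosen after the values had been seen. In the control library all 4 stayed higher in each of the 3 ranges: SH3BGRL3 had log2 ratios of 0.73, 0.88 and 1.23 from the shallowest to the deepest, and MAP1B had 1.15, 1.70 and 0.81. In the squashed library they were higher in both ranges below 10000 UMIs. Among squashed barcodes of 10000 to under 15000 UMIs, where there were 40 low-complexity cells, MAP1B stood at -0.08 (-0.52 to 0.31) and ANXA10 at 0.17 (-1.45 to 1.31). SH3BGRL3 was at 0.71 (0.31 to 1.08) and AKR1B1 at 0.53 (0.37 to 0.69) there.

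At 5000 UMIs per barcode, 4209 genes were measured in control, meaning at least 20 CPM in either pool. Of these 22 (0.523%) were at least 2-fold higher in the low-complexity cells and 2341 (55.6%) at least 2-fold lower. In squashed 3902 were measured, 14 (0.359%) were higher and 1757 (45.0%) lower. A gene can be measured through the gene-rich pool alone, so counts of lower genes rest in part on the limit of 20 CPM. Over all measured genes the median log2 ratio was -1.15 for the control library and -0.86 for the squashed one. Scaling by TMM, which centres the bulk of the genes, moved every log2 ratio up by 1.12 in control and 0.99 in squashed. It gave 756 higher and 475 lower of 3492 measured genes in control, and 655 higher and 423 lower of 3381 in squashed. Any ratio between 0 and -1.12 in control, or 0 and -0.99 in squashed, thus turns positive under TMM. Gene lists are therefore also set against the median of all genes. Over a fixed set of genes that shift leaves a list's distance from this median unchanged. The measured set did change under TMM, where the median of all genes was 0.22 and 0.34. Of 64 list distances, squashed over control included, 60 kept their direction. The ratios of the libraries had a Spearman correlation of 0.89 across the 3733 genes measured in both, which are not independent replicates and share the same rule. Of the genes lower in control, 77.3% were lower in squashed too, and of those lower in squashed, 93.1% were lower in control.

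NEAT1 and MALAT1, both nuclear RNAs, were among the 12 lowest genes common to the libraries. NEAT1 (ENSG00000245532, chr11:65422774-65445540) was at 20.6 CPM in control low-complexity cells against 1355 CPM in gene-rich ones, 65.7-fold lower, and at 15.3 against 850 CPM in squashed, 55.6-fold lower. MALAT1 (ENSG00000251562, chr11:65497640-65508073) was at 344 against 8478 CPM in control, 24.6-fold lower, and at 369 against 9512 CPM in squashed, 25.8-fold lower. The groups differed cell by cell as well: of 5000 UMIs the median low-complexity cell held 1.00 MALAT1 UMI in either library, with a highest value of 20 in control and 41 in squashed, while the median gene-rich cell held 12 and 19. No MALAT1 UMI was found in 45.4% of control low-complexity cells (38.2 to 52.6) and 28.1% of squashed ones (23.6 to 33.1), against 6.10% (4.92 to 7.45) and 7.59% (6.11 to 9.30) of gene-rich cells at the same depth. The distributions overlapped, since 28.4% of control and 27.3% of squashed gene-rich cells also had at most 5 MALAT1 UMIs.

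Of 15 nuclear non-coding RNAs listed, 10 were measured in control and 9 in squashed, and all of them were at least 2-fold lower in the low-complexity cells, as were 55.6% and 45.0% of all genes. Their median log2 ratio was -2.96 in control, or -2.70 with 2 genes at 0 UMIs set at their bound, and -2.14 in squashed, against -1.15 and -0.86 for all genes. Only 4 of the list reached 20 CPM in a low-complexity pool. The others measured entered only through the gene-rich cells, so that all were lower was largely built in. FTX, transcribed from the X-inactivation centre, had 0 UMIs in control low-complexity cells and was at least 19.3-fold lower there, against a floor of 3 UMIs per pool. In squashed it had 2 UMIs, a log2 ratio of -4.24 (-7.62 to -2.68). Nearer to the bulk of genes were OIP5-AS1 at -1.42 and -1.41 and JPX at -1.17 and -1.16. GABPB1-AS1, an antisense RNA, was at 3.09 against 49.9 CPM in control and 2.19 against 52.1 CPM in squashed. The sources used here do not say whether counting used strand, so antisense genes are uncertain.

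Depth moved with MALAT1 and NEAT1, since shallow gene-rich cells held little of both. From 5000 to under 7500 UMIs, MALAT1 was at 523 CPM in low-complexity against 1523 CPM in gene-rich control cells, and at 443 against 2959 CPM in squashed, log2 ratios of -1.54 (-1.74 to -1.34) and -2.74 (-2.89 to -2.59). From 10000 to under 15000 UMIs it was at 76.2 against 5529 CPM in control and 180 against 4929 CPM in squashed, log2 ratios of -6.14 (-6.99 to -5.48) and -4.76 (-5.29 to -4.30). MALAT1 was thus lower in low-complexity cells within each range, and the gap was smaller among shallow barcodes. The list as a whole did not stay below the other genes there: in control barcodes of 5000 to under 7500 UMIs its median was 0.61 above that of all genes, over 6 measured members, and against 30 gene-rich control cells drawn to match in depth it was 0.20 above.

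**Figure D2:**
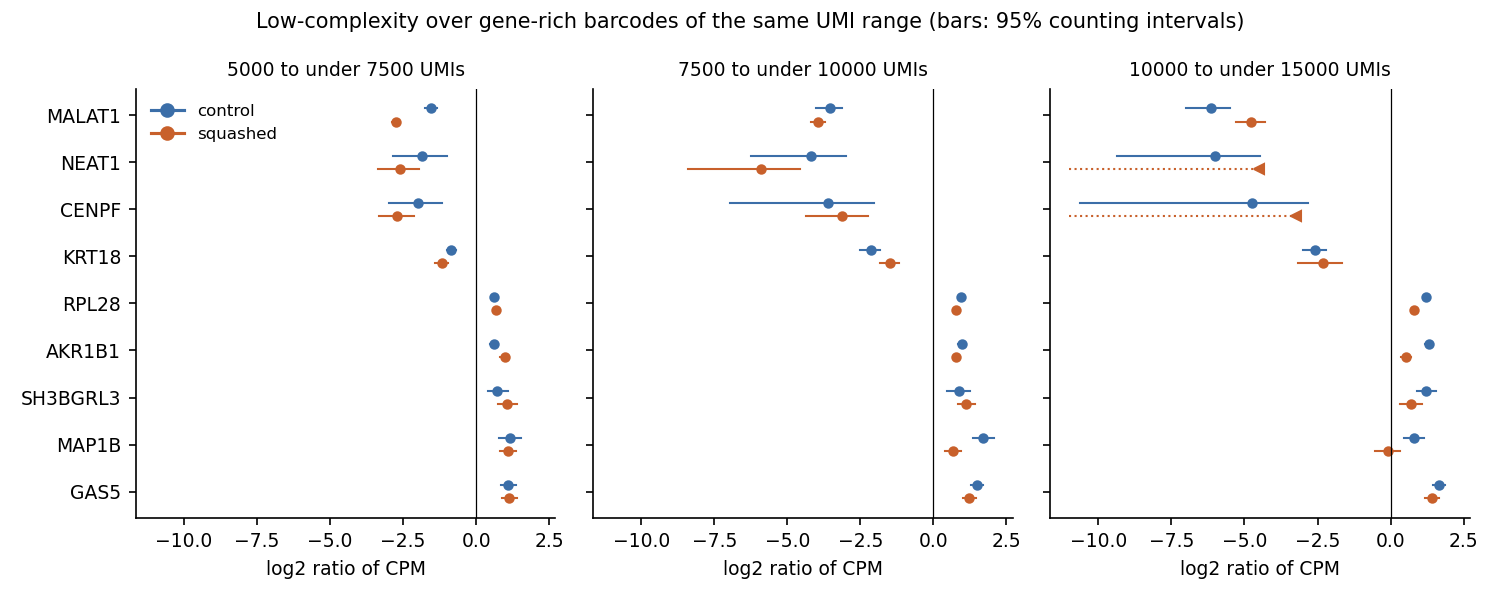
Log2 ratio of CPM, low-complexity over gene-rich barcodes (x axis), for 9 genes (y axis) in 3 ranges of UMIs per barcode, control in blue and squashed in orange, with 95% counting intervals as bars; a triangle marks the upper limit where the low-complexity cells held 0 UMIs. MALAT1, NEAT1, CENPF and KRT18 lie left of 0 in all ranges, and in squashed barcodes of 10000 to under 15000 UMIs MAP1B lies at -0.08.

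Ribosomal protein mRNA filled the low-complexity cells. At the median it took 44.1% of a cell's UMIs in control, from 29.0% to 73.7%, and 43.9% in squashed, from 26.9% to 70.2%, against medians of 29.0% and 30.8% in gene-rich cells. Of 83 measured cytosolic ribosomal protein genes, 81 had ratios above the median of all genes in each library. At least 2-fold higher were 0, beside 0.523% and 0.359% of all genes, and 2 were at least 2-fold lower, beside 55.6% and 45.0%. The list's median log2 ratio was 0.54 in control and 0.42 in squashed. RPL28, a protein of the large subunit, was at 15604 against 8108 CPM in control and 14323 against 8100 CPM in squashed, log2 ratios of 0.94 and 0.82. RPS19 of the small subunit followed at 0.89 and 0.76 and RPL13A at 0.87 and 0.69. The 2 that were lower were RPL7L1, at -2.39 and -1.49, and RPL39L, at -1.20 and -1.84, both paralogues of the core proteins. Ribosomal protein genes have many processed copies in the genome, so single genes of the list are uncertain. In absolute UMIs at full depth the median low-complexity cell held 3452 ribosomal protein UMIs in control and 3060 in squashed, against 4320 and 4620 in gene-rich cells, while its other UMIs numbered 3551 and 3432 against 9307 and 8521.

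Translation factors did not move as 1 group. Among the higher ones, EEF1A1, which brings aminoacyl-tRNA to the ribosome, was at 0.81 and 0.65 and EEF1D, of the elongation complex, at 0.77 and 0.64. TPT1, a growth-related protein whose mRNA is a known TOP message, was at 0.80 and 0.78. The lower ones included EIF5 at -1.71 and -1.93 and EIF4E, the cap-binding protein, at -1.72 and -1.60. Over the 30 listed factors the median was 0.01 in control and 0.11 in squashed, or 1.16 and 0.98 above that of all genes. Of the 30, 8 and 3 were at least 2-fold lower, beside 55.6% and 45.0% of all genes. Genes for mitochondrial ribosomal proteins stood apart from the cytosolic ones, with medians of -1.18 and -0.84, at the level of all genes.

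Host genes of small nucleolar RNAs, whose spliced RNAs are mostly non-coding, had the highest median of the lists in control, the 4 markers and the single-gene lists apart. The median of 14 measured genes in control was 0.63, with 5 at least 2-fold higher and 1 lower. That of 13 in squashed was 0.59, with 3 higher and 1 lower. Among all measured genes, 0.523% and 0.359% were at least 2-fold higher and 55.6% and 45.0% lower. SNHG32 was at 247 against 116 CPM in control and 187 against 82.9 CPM in squashed, 2.14-fold and 2.26-fold higher. GAS5 was at 1003 against 475 CPM and at 758 against 369 CPM, 2.11-fold and 2.06-fold higher, and SNHG29 at 3327 against 1573 CPM and at 2602 against 1277 CPM. SNHG15 went the other way, at -2.47 and -2.18. Within the 3 depth ranges GAS5 had log2 ratios of 1.09, 1.5 and 1.65 in control and of 1.13, 1.22 and 1.43 in squashed, so it was at least 2-fold higher in each.

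The 12 genes with the highest ratios common to both libraries also held EPB41L4A-AS1, a non-coding RNA, at 135 against 61.9 CPM in control and 30.6 against 16.1 CPM in squashed, and 5 coding genes not described above. VTN, which encodes vitronectin, was at 67.0 against 28.9 CPM in control and 42.1 against 17.9 CPM in squashed, 2.32-fold and 2.36-fold higher. NPC2, the lysosomal cholesterol carrier, was 2.52-fold and 1.78-fold higher, CTSD, the lysosomal protease cathepsin D, 1.83-fold and 1.75-fold, and MMP7, a secreted matrix protease, 2.52-fold and 1.75-fold. ATOX1, a copper chaperone, was 2.01-fold and 1.78-fold higher. The list of secreted and surface proteins as a whole spread widely. Its medians were -0.81 and -0.25, or 0.34 and 0.61 above that of all genes. At least 2-fold lower were 16 of 37 in control and 9 of 31 in squashed, beside 55.6% and 45.0% of all genes. TIMP1, a protease inhibitor, was at 0.88 and 0.70 and PSAP, the saposin precursor, at 0.89 and 0.53, while the growth differentiation factor GDF15 was at 1.03 and 2.19 CPM, or 1 and 4 UMIs.

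Annexins and S100 proteins, small calcium-binding proteins of the cytosol and membrane, all stood above the median of all genes. The median of the 15 measured was 0.32 in control and 0.59 in squashed. S100A4 was at 1159 against 644 CPM and at 1293 against 749 CPM, log2 ratios of 0.85 and 0.79, and S100A11 was at 0.69 in both. Abundant genes of actin behaved likewise, with TMSB4X, which binds actin monomers, at 0.57 and 0.66, TPM2, a tropomyosin, at 0.74 and 0.77, and MYL6, a myosin light chain, at 0.65 and 0.51. TAGLN, an actin-bundling protein, was at 23.7 against 6.44 CPM and 19.7 against 6.25 CPM. VCL, the focal adhesion protein vinculin, was at -2.04 and -1.64 and EZR, which links actin to the membrane, at -1.41 and -1.17. The actin and myosin list had medians of -0.32 and -0.16, which lie 0.83 and 0.70 above that of all genes.

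Genes of energy metabolism had CPM ratios near 0, which lie above the median of all genes: by 1.05 in control and 0.88 in squashed for oxidative phosphorylation and by 0.87 and 0.91 for glycolysis. Nuclear genes of oxidative phosphorylation had medians of -0.10 and 0.01 over 53 and 52 measured. Of them 4 and 1 were at least 2-fold lower, beside 55.6% and 45.0% of all genes, and 0 were higher. All 13 mitochondrially encoded mRNAs were measured, with medians of -0.30 and -0.42 and none at least 2-fold changed; the rule limited their sum. Glycolysis had medians of -0.28 and 0.05, and in it GAPDH was at 0.61 and 0.69 while LDHA, which makes lactate, was at -1.38 and -0.53.

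Immediate early genes, which respond fast to stimuli, were far lower. All 9 measured immediate early genes were at least 2-fold lower in each library, as were 55.6% and 45.0% of all genes, with medians of -3.32 in control, or -2.86 with 1 gene at its bound, and -2.93 in squashed. Only 2 of the list reached 20 CPM in a low-complexity pool. The others measured entered only through the gene-rich cells, so that all were lower was largely built in. ZFP36L1, which binds AU-rich elements and marks their mRNAs for decay, was at 3.09 against 176 CPM in control and 7.65 against 139 CPM in squashed, log2 ratios of -5.61 (-8.11 to -4.28) and -4.13 (-5.06 to -3.43). SOX4, a transcription factor, was at 3.09 against 77.7 CPM and 5.46 against 87.5 CPM. Its ratios were -4.43 (-6.93 to -3.10) and -3.93 (-5.07 to -3.11). ID3, an inhibitor of helix-loop-helix factors, was at -2.24 and -2.34 and DUSP1, a phosphatase of MAP kinases, at -2.40 and -2.30.

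Also among the 12 lowest genes were LGR4, a receptor for R-spondins, at -4.56 (-7.93 to -3.01) and -3.91 (-5.68 to -2.80), and ZFAND5, a zinc finger protein, at -5.04 (-8.41 to -3.50) and -3.78 (-4.99 to -2.91). TOB1, an antiproliferative adaptor of deadenylation, was at -3.31 (-5.07 to -2.21) and -3.27 (-4.84 to -2.23). CNTNAP3B, a contactin-associated cell surface protein, was at -3.63 (-5.68 to -2.43) and -3.56 (-6.08 to -2.20). These rest on 2 to 5 UMIs in the control and 3 to 9 in the squashed low-complexity cells, so their size is known only within the intervals. They passed the limit of 50 CPM for named genes only through the gene-rich cells. In barcodes of 5000 to under 7500 UMIs the gene-rich cells also held few of them: SOX4 was at 5.77 against 7.34 CPM in control, a ratio of -0.29 (-3.12 to 2.22), and CNTNAP3B at -0.42 (-4.10 to 2.61), neither distinguishable from 0 at this depth.

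Messages for nuclear machinery were low with them. Of 34 splicing and nuclear RNA-binding proteins 30 in control and 26 in squashed were at least 2-fold lower, beside 55.6% and 45.0% of all measured genes, with medians of -2.03 and -1.79. SRRM2, a scaffold of nuclear speckles, was at -4.09 (3 UMIs, -6.59 to -2.75) and -2.74, and DDX17, an RNA helicase, at -3.98 (2 UMIs, -7.35 to -2.43) and -3.46. The abundant HNRNPA1 was at -0.14 and -0.10 and HNRNPC at -0.73 and -0.64. The nuclear envelope list had medians of -1.54 and -1.47. In it LBR, the lamin B receptor, was at -2.53 and -2.96, LMNA, which encodes lamins A and C, at -1.03 and -0.97, and BANF1, a chromatin-binding protein of the envelope, at -0.45 and -0.44.

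Cell cycle genes were lower by more than the bulk. Of 57 G2/M genes 51 were measured in control and 50 in squashed, and all were at least 2-fold lower, again beside 55.6% and 45.0% of all genes, with medians of -2.15 and -2.41. Their sum was 2103 against 8062 CPM in control and 1577 against 7202 CPM in squashed. Of these genes 23 reached 20 CPM in a low-complexity pool, and the others measured entered only through the gene-rich cells. CENPF, a kinetochore protein of dividing cells, was at 17.5 against 193 CPM in control, 11-fold lower, and at 22.4 against 244 CPM in squashed, 10.9-fold lower. ASPM of the spindle poles was at -3.57 (-5.63 to -2.38) in control and, on 1 UMI, at -6.00 (-11.89 to -4.10) in squashed. G1/S genes had medians of -1.72 and -1.49, with 18 of 20 and 20 of 22 at least 2-fold lower. In that list 8 reached 20 CPM in a low-complexity pool.

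Low-complexity cells were not alike in these genes. At least 20 G2/M UMIs of 5000 were found in 45 of 194 control cells (23.2%, 17.5 to 29.8) and in 50 of 366 squashed cells (13.7%, 10.3 to 17.6), and fewer than 10 in 139 and 293. The limits of 20 and 10 were set after the values had been seen. The G2/M-rich cells were shallower and less extreme, with medians of 5930 and 5710 UMIs and of 1291 and 1226 genes at 5000 UMIs, against 8327 and 7444 UMIs and 818 and 972 genes in the cells with fewer than 10. The 4 marker genes were higher in the G2/M-poor cells: AKR1B1 was at 2812 CPM there against 929 CPM in the G2/M-rich cells of control and at 2337 against 1128 CPM in squashed, and ANXA10 was at 53.2 against 22.2 and 61.4 against 24.0 CPM. GAS5 followed, at 1227 against 391 and 844 against 400 CPM. MALAT1 was lower in the G2/M-poor cells, at a mean of 0.619 against 4.87 UMIs of 5000 in control and 1.42 against 4.42 in squashed. Among gene-rich cells, 68.7% in control and 62.2% in squashed held at least 20 G2/M UMIs. Fewer than 10 were held by 27.3% and 29.7% of gene-rich cells, against 71.6% and 80.1% of low-complexity cells. The ratios thus set mostly G2/M-poor cells against mostly G2/M-rich ones, and the part of this in them was not tested.

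Ribosomal protein share and MALAT1 changed little across the 1500-gene ceiling. Just inside it, from 1400 to under 1500 genes, the median ribosomal protein share was 37.2% in control and 40.3% in squashed and the mean MALAT1 count 2.91 and 2.60 UMIs of 5000. Just outside it, from 1500 to under 1600 genes, these were 38.0% and 39.1%, and 3.36 and 2.68. The median G2/M count differed in squashed, at 4.50 UMIs just inside and 12 just outside, against 28 and 22.5 in control. The median number of genes among 5000 UMIs was 1264 and 1089 just inside and 1190 and 1165 just outside. At the far end, cells with 500 to under 1000 genes had a median ribosomal protein share of 53.6% and 53.7%, over 35 and 40 cells.

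**Figure D3:**
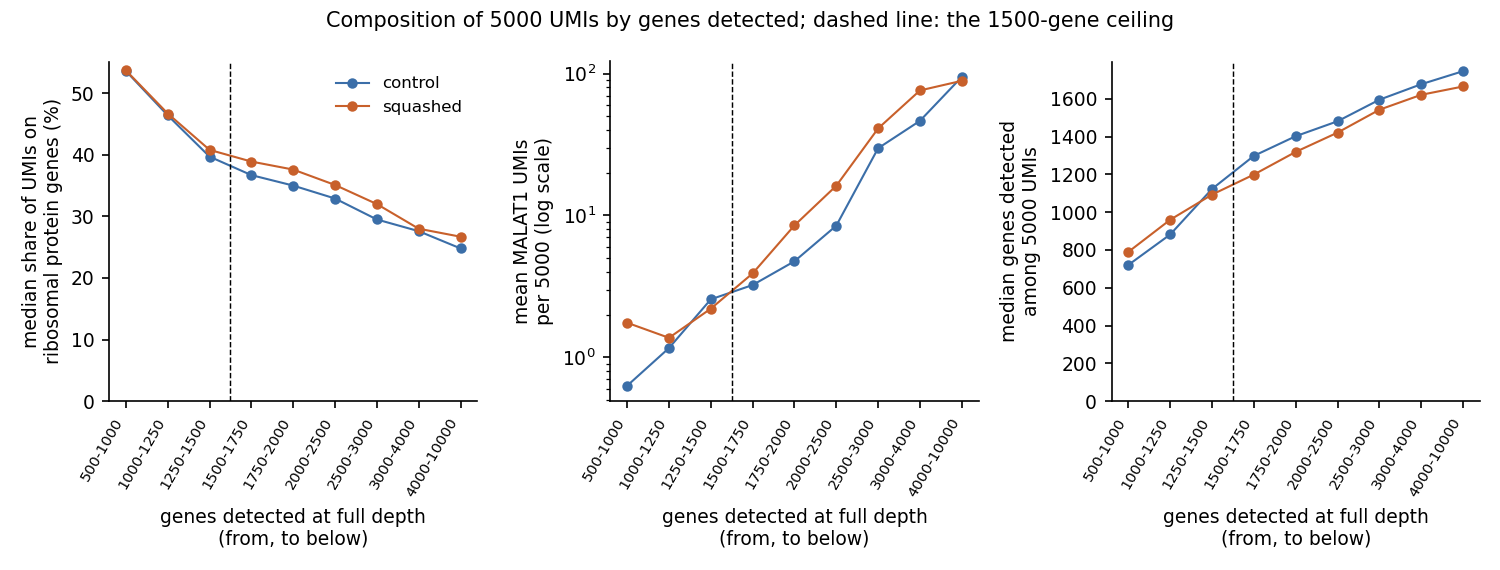
Median share of UMIs on ribosomal protein genes (left), mean MALAT1 UMIs per 5000 on a log scale (middle) and median genes among 5000 UMIs (right) in barcodes grouped by genes detected at full depth, control in blue and squashed in orange, with the ceiling dashed. The ribosomal protein share goes from 53.6% and 53.7% in the lowest range to 24.8% and 26.7% in the highest, with no jump at the ceiling.

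Among the low-complexity cells themselves, the number of genes at 5000 UMIs ran against the ribosomal protein share, with Spearman correlations of -0.89 over 194 control and -0.81 over 366 squashed cells. It ran against the UMI total too, at -0.67 and -0.50, and with the G2/M UMIs at 0.70 and 0.58; all of these come from the same UMIs of the same cells. Of 1098 genes with at least 50 CPM, the closest to the number of genes included PTMA, prothymosin alpha, with correlations of 0.75 and 0.62, the chaperone HSP90AB1 at 0.65 and 0.56, the splicing proteins SNRPB at 0.66 and 0.56 and HNRNPA2B1 at 0.69 and 0.56, the proteasome subunit PSMA7 at 0.67 and 0.56, and the nucleolar protein NCL at 0.65 and 0.55. The other end included EEF1A1 at -0.74 and -0.65, RPS19 at -0.81 and -0.63 and RPS27 at -0.59 and -0.65.

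**Figure D4:**
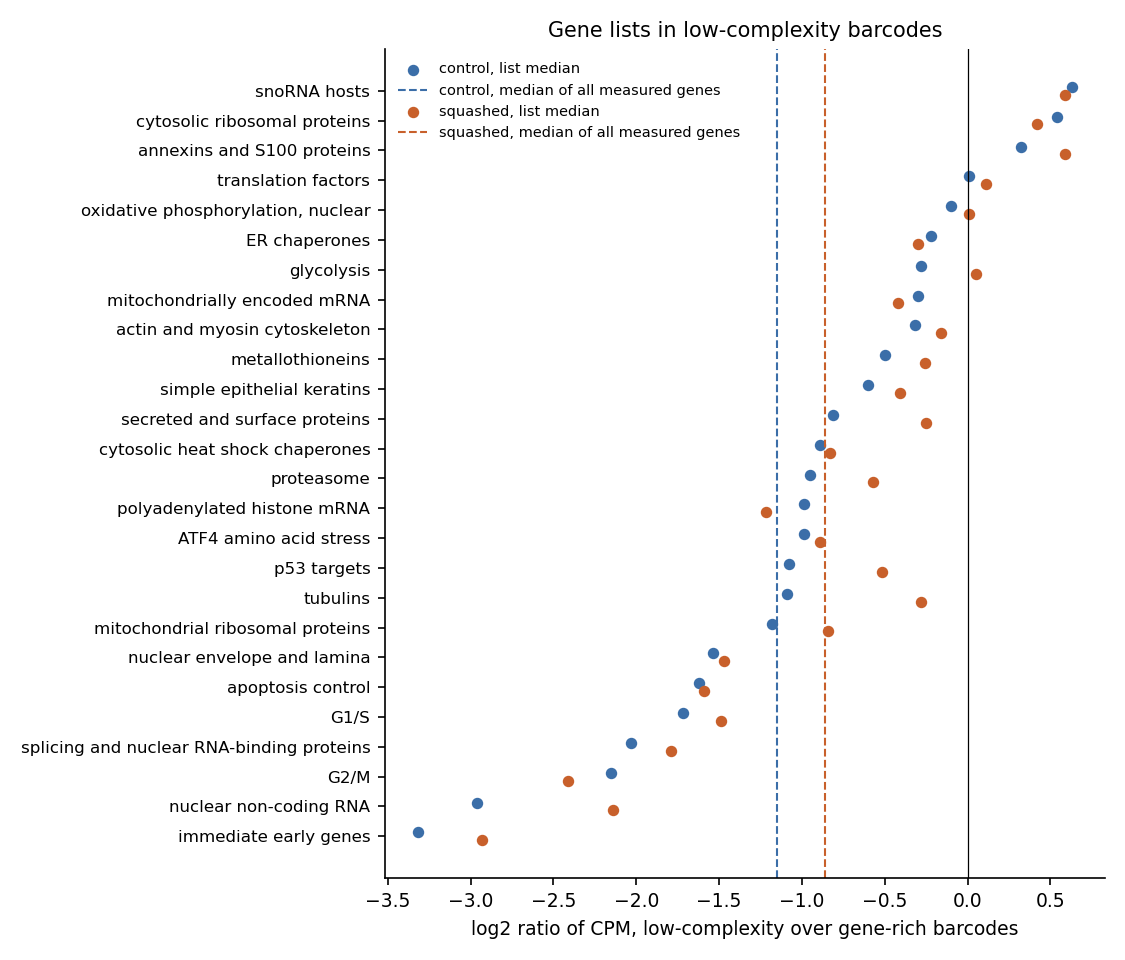
Median log2 ratio of CPM, low-complexity over gene-rich barcodes (x axis), for 26 gene lists (y axis), with control in blue, squashed in orange and the median of all measured genes dashed. Host genes of small nucleolar RNAs, cytosolic ribosomal proteins and annexins with S100 proteins lie right of 0 in both libraries, and immediate early genes lie lowest at -3.32 and -2.93.

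Several lists lay at or above the median of all genes in control. Proteasome subunits had medians of -0.95 and -0.57, cytosolic heat shock chaperones of -0.89 and -0.83, endoplasmic reticulum chaperones of -0.22 and -0.30, targets of p53 of -1.08 and -0.52, and amino acid stress genes under ATF4 of -0.99 and -0.89. HSPA5, the main chaperone of the endoplasmic reticulum, was at -1.17 and -1.49, and SSR4, a subunit of the translocon-associated complex, at 0.92 and 0.61. Apoptosis genes had medians of -1.62 and -1.59, over 8 and 6 measured; MCL1, a survival protein, was at 1 and 4 UMIs and BCL2L1, a relative of it, at -2.15 and -2.08. Histone messages had medians of -0.99 and -1.22. Within that list HIST1H1C was at 0.89 and 0.68 and H3F3B at -2.28 and -2.38. Histone genes resemble each other closely, so single values are uncertain.

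By CPM, epithelial keratins were lower in part, with list medians of -0.60 and -0.41. These lie 0.55 and 0.45 above the median of all genes. KRT8 lay above that median in both libraries and KRT18 below it. KRT18 was at 706 against 1674 CPM in control and 238 against 590 CPM in squashed, ratios of -1.24 and -1.31, while its partner KRT8 was at -0.57 and -0.45. KRT18 has many processed copies, which makes its count less certain. The 27 aldo-keto reductase and NRF2 genes had medians of -0.59 and -0.39, 0.56 and 0.47 above that of all genes. In each library 18 lay above it. Their sum was 77041 against 59698 CPM in control and 62787 against 57510 CPM in squashed. FTL, the ferritin light chain, was at 0.68 and 0.28. The glutathione synthesis enzymes GCLC and GCLM were at -3.35 and -3.11, and at -3.27 and -2.81. The 11 measured tubulins had medians of -1.09 and -0.28, with highest values of 0.68 and 0.69. They included TUBB4B, at -2.65 and -2.46, and TUBB, at -0.44 and -0.28.

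Ratios followed the length of the transcript. Among nuclear genes without ribosomal protein genes the median was -0.18 in control and -0.07 in squashed for transcripts up to 800 bases, and it fell class by class to -1.82 and -1.48 above 5000 bases, over 243 to 1391 genes per class. Spearman correlations across genes were -0.42 over 4109 genes in control and -0.39 over 3802 in squashed; genes are not independent replicates. Genes with 0 ATTTA in the 3′ untranslated region had medians of -0.82 and -0.60 and those with 5 or more had -1.51 and -1.21. Longer regions hold more ATTTA. Among genes with regions up to 500 bases the medians were -0.75 and -0.53 for 0 against -1.27 and -0.94 for 3 or more. Above 1500 bases the gap was smaller, at -1.27 and -1.09 for 0, -1.31 and -0.95 for 1 or 2, and -1.52 and -1.23 for 3 or more, and in squashed the order of the classes broke. Among the 439 genes at least 4-fold lower in both libraries, 64.7% of 428 with such a region held at least 3 ATTTA, and 14.2% of 379 with a start window had a pyrimidine start. Transcripts with GC content above 55% had medians of -0.85 and -0.61 and those up to 45% had -1.39 and -1.05. The level of the genes was not held constant in these classes. Ratios moved with level too: from 50 CPM the median of all genes was -0.80 and -0.54, against -1.15 and -0.86 from 20 CPM. The part of level in the trends was not tested.

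Squashed low-complexity cells were then set against control ones, a contrast that the rule did not use. Of 2549 measured genes 141 (5.53%) were at least 2-fold higher in squashed and 159 (6.24%) lower, and the median of all was 0.09. In the gene-rich cells of the same libraries 4331 were measured, 52 (1.20%) were higher and 214 (4.94%) lower, with a median of -0.09. The pools held 970000 control and 1830000 squashed UMIs in low-complexity cells, against 7300000 and 5600000 in gene-rich cells. Counting error is larger in the smaller pools, so these shares cannot be compared between the classes. The libraries differed in depth and in G2/M-rich cells, so the low-complexity contrast was also made without cells of at least 20 G2/M UMIs: 325 genes were then higher and 125 lower. The share of higher against lower genes thus depended on which cells were taken, and their part in single genes was not tested.

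The lowest genes in squashed low-complexity cells were also low in squashed gene-rich cells. MRPL12, a mitochondrial ribosomal protein, was at 50.5 CPM in control and 2.19 CPM (4 UMIs) in squashed low-complexity cells, a log2 ratio of -4.38 (-6.46 to -3.08), beside -3.54 (-4.01 to -3.13) in gene-rich cells. PPDPF was at 298 and 24.6 CPM, -3.59 beside -3.09, and DDT, D-dopachrome tautomerase, at 190 and 17.5 CPM, -3.42 beside -2.68. MIF, a cytokine related to DDT, was at 455 and 60.1 CPM, -2.91 (-3.23 to -2.61), beside -1.84 (-1.99 to -1.71). TSPO, a protein of the outer mitochondrial membrane, was at 190 and 36.1 CPM, -2.39 beside -2.29, and AURKAIP1 at 91.8 and 16.9 CPM, -2.42 beside -2.41. C9orf16, NDUFAB1, IKBIP and EIF4EBP1 completed the 10 lowest, from -2.45 to -2.29.

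The highest genes were raised in gene-rich cells as well, in part by less. ATP5ME and NDUFB1, subunits of ATP synthase and of complex I, were at 137 and 551 CPM and at 172 and 680 CPM in control and squashed low-complexity cells, ratios of 2.00 and 1.98 beside 1.92 and 1.82. NMT1, which attaches myristate to proteins, was at 19.6 and 91.8 CPM, 2.20 (1.54 to 3.0) beside 1.38 (1.22 to 1.55). AP2B1, an adaptor of clathrin coats, was at 56.7 and 238 CPM, 2.06 (1.66 to 2.5) beside 1.21 (1.09 to 1.34), and DYNC1I2, a dynein chain, at 39.2 and 160 CPM, 2.01 beside 1.18. HIST1H4C, a replication-dependent histone, was at 11.3 and 51.4 CPM, 2.12 beside 1.10, and TUBA1A, CSKMT, SMIM4 and DHX40 ranged from 1.93 to 1.77. All 3 measured metallothioneins, the zinc- and copper-binding proteins, were at least 2-fold higher in squashed low-complexity cells, beside 5.53% of all genes. MT2A was at 859 and 2418 CPM, 1.49, and MT1F at 6.19 and 23.5 CPM, 1.83. The list's summed level was 2.79-fold higher in low-complexity and 3.02-fold higher in gene-rich cells.

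The squashed over control ratios of the cell classes lay within 1.5-fold of each other for 2054 of 2502 genes measured in both. The genes furthest apart are given here. HIF1A, the oxygen-regulated transcription factor, was at 55.7 and 149 CPM in low-complexity cells, 1.41 (0.99 to 1.87), beside 0.34 (0.24 to 0.44) in gene-rich cells. PLIN3, a lipid droplet coat protein, was at 1.38 (0.79 to 2.07) beside 0.13 (-0.04 to 0.29), ACLY, which makes cytosolic acetyl-CoA, at 1.05 (0.51 to 1.65) beside -0.12, and NDUFA9 of complex I at 1.08 beside -0.02. PLGRKT, a plasminogen receptor, was at 0.67 beside -0.37. PMEPA1, a target of TGF-beta signalling, was at 1.19 beside 0.00, but in barcodes of 10000 to under 15000 UMIs it was at -0.07. On the other side, ATP6AP2, a subunit of the vacuolar proton pump, was at -2.19 (-2.63 to -1.79) beside -1.18 (-1.40 to -0.96), NPM3, a nucleolar chaperone, at -0.69 beside 0.15, and MT1X at 1.06 (0.60 to 1.58) beside 2.02 (1.89 to 2.15). UBE2S, which extends ubiquitin chains in mitosis, was at -1.95 (-2.61 to -1.34) beside -0.85, and at 0.07 among barcodes of 10000 to under 15000 UMIs. These pairs are side by side values from 1 library per arm, and no difference between them was tested.

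**Figure D5:**
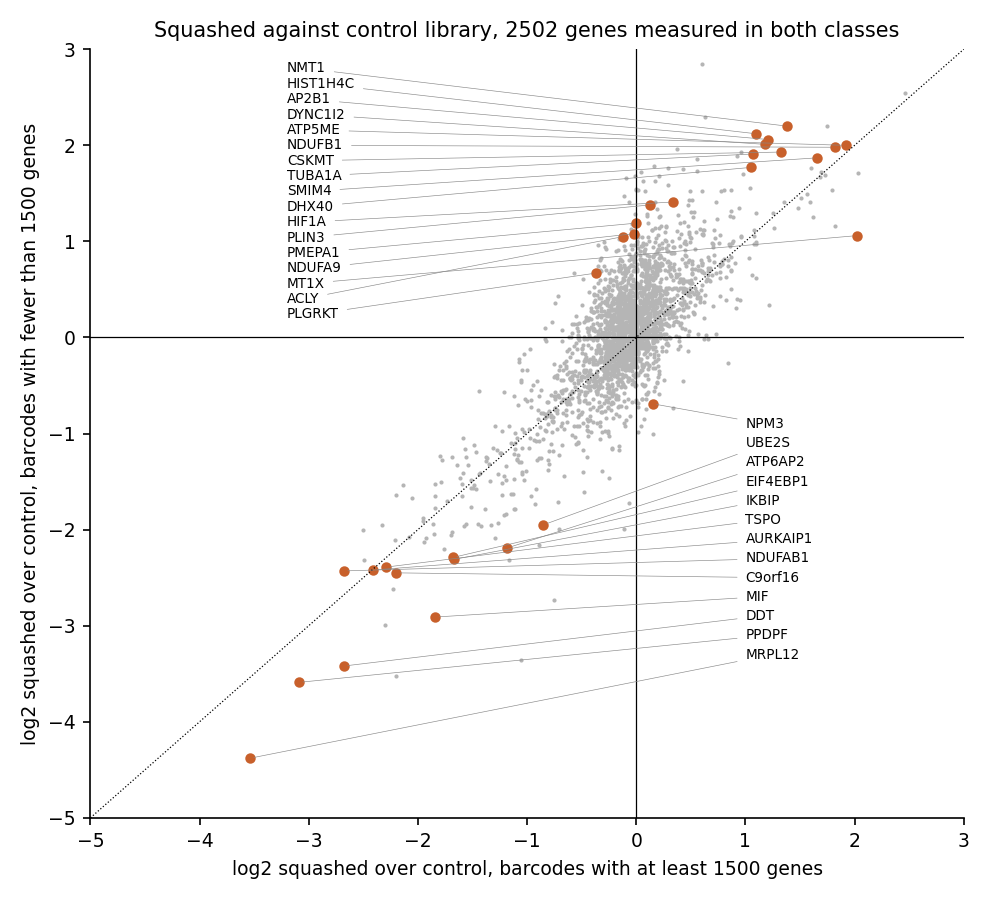
Log2 squashed over control for 2502 genes measured in both classes, gene-rich cells on the x axis and low-complexity cells on the y axis, with the genes named in the text in orange and equality dotted. MRPL12, PPDPF and DDT lie lowest on both axes, and HIF1A, PLIN3 and ACLY lie near 0 on the x axis and above 1 on the y axis.

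By summed level most lists differed little between squashed and control low-complexity cells, apart from the metallothioneins and the simple epithelial keratins. The lists of other cell types, at few UMIs, are left aside. By median the keratins were at -0.51, near the apoptosis and G2/M genes given below. The keratins were 2.04-fold lower in squashed by summed level (-1.03, -1.07 to -0.98) and 2.24-fold lower in gene-rich cells. Single keratins went both ways. The 4 measured in low-complexity cells ranged from -1.57 to 0.70, with 2 at least 2-fold lower, beside 6.24% of all genes. In gene-rich cells the 5 measured ranged from -1.54 to 0.58. KRT8 was at 602 CPM in control and 888 in squashed low-complexity cells of 5000 to under 7500 UMIs. Apoptosis genes had a median of -0.64 over 4 measured. The 4 marker genes had ratios from -0.12 for AKR1B1 to 0.37 for ANXA10. Cytosolic ribosomal proteins had a median of -0.11, with RPS27 at 0.97 beside 1.08 in gene-rich cells and RPL39L at -1.85. MALAT1 was at 0.10 (-0.09 to 0.29) and NEAT1 at -0.44 (-1.31 to 0.47), on 20 control and 28 squashed UMIs. Proteasome genes had a median of 0.37 in low-complexity and -0.01 in gene-rich cells, glycolysis 0.39 and 0.18, with LDHA at 0.92, and annexins and S100 proteins 0.24 and 0.02. G2/M genes had a median of -0.52 over 23 measured, 0.61 below that of all genes, with PLK1, a mitotic kinase, at 41.2 and 6.01 CPM. That order turned when cells of at least 20 G2/M UMIs were left out, to 0.47 above the median of all genes. These cells made up a larger share of the control than of the squashed low-complexity cells, as given above.

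GC content moved with this contrast in both classes. In low-complexity cells, the 579 genes of GC content above 55% had a median ratio of -0.05, with 32 higher and 80 lower. The 1061 genes up to 45% had 0.16, with 59 higher and 31 lower. In gene-rich cells the 922 genes above 55% had -0.17, with 13 higher and 110 lower. The 1945 up to 45% had -0.08 there, with 14 higher and 47 lower. Over all measured genes 5.53% were higher and 6.24% lower in low-complexity cells, and 1.20% and 4.94% in gene-rich cells, whose pools were larger. Its part in the differences between the libraries was not tested, and with 1 library per arm, confinement and library cannot be told apart.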

How the data were processed

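Gene-by-barcode UMI counts of 2 single-cell libraries, 1 per arm, were used as deposited. The authors made these counts with Cell Ranger against GRCh38, with version 4.0.0 named per the file headers and 5.0.1 in the series' design, from Chromium 3.1 libraries. The submitters' processing notes name R 4.3.2. How barcodes were called as cells is not stated there, and the labels give both libraries 1 batch date. The control library held 30565366 UMIs and the squashed library 26829300.

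Each barcode was thinned to 5000 UMIs without replacement and counts were pooled by library and class, giving 970000 control and 1830000 squashed UMIs in low-complexity cells. Log2 ratios of CPM used a prior of 0.5 UMIs, and a difference of at least 2-fold was called by size, with no test. Genes needed 20 CPM in either pool. The members and the 34 gene lists were chosen with earlier results of these data known. Named genes were the 4 markers, the 12 highest and 12 lowest by the smaller ratio of both libraries with at least 50 CPM, the 10 highest and 10 lowest of squashed over control, the 6 with the largest difference between classes in each direction, those following the number of genes, and up to 4 per list described. Further list members are named as examples, chosen after their values were seen. Doublets were called with Scrublet in scanpy 1.11.5 and kept. TMM factors came from edgeR 4.0.16 in R 4.3.3. Other steps used Python 3.11.15, numpy 2.4.6, scipy 1.17.1 and pandas 2.3.3 and were tested on simulated data. Transcript features came from GENCODE 44 canonical transcripts, matched for 99.9% of measured genes.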

Additional observations from a re-analysis of the deposited data

How the results depend on the processing

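With 1 library per arm, no value has a replicate check, and none was left out. No paired analysis was possible because each arm has 1 library. The thinned pools limit genes of low level: a gene with 0 to 3 UMIs in a pool is known only within its interval. The 3 ranges of UMIs and the setting without G2/M-rich cells (at least 20 G2/M UMIs) were added after seeing the data; matching on depth left 30 control and 23 squashed gene-rich cells. The causes of the changes below were not tested. Of 1478 values of single genes under the alternatives, 1459 kept their direction and 2 of those called reversed. Most of these genes were chosen as extremes of the same data, so keeping direction was largely built in. Only 1113 stayed within the counting interval of the reported value. Against depth-matched cells 20 of 52 did, and from 10000 to under 15000 UMIs 36 of 86. The share of low-complexity cells was 5.56% in control and 11.3% in squashed with a ceiling of 1200 genes, 3.90% and 4.44% at 10000 UMIs, 48.8% and 68.9% from 5000 to under 7500 UMIs, 16.9% and 40.2% from 7500 to under 10000, and 9.31% and 11.5% from 10000 to under 15000. With the ceiling set on genes among 5000 UMIs it was 12.3% and 24.1%, within the counting intervals of the reported shares.

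Genes at least 2-fold higher in control low-complexity cells numbered 61 with the ceiling of 1200, 73 at 10000 UMIs, 756 under TMM, 131 with scaling free of MT- and ribosomal protein genes, 2854 without a filter, 49 with the ceiling set on genes among 5000 UMIs, 107 against depth-matched cells, 58 without G2/M-rich cells, and 91, 187 and 129 in the 3 ranges. In squashed they numbered 27 with the ceiling of 1200, 655 under TMM, 64 with the scaling free of MT- and ribosomal protein genes, 5 from 50 CPM, 818 without a filter, 110 depth-matched, and 74, 68 and 80 in the ranges. Lower genes numbered 475 in control and 423 in squashed under TMM, 903 and 605 from 50 CPM, and 7669 and 8031 without a filter, with 1437 in control from 5000 to under 7500 UMIs.

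Squashed over control low-complexity cells gave 339 higher genes with the ceiling of 1200, 377 at 10000 UMIs, 285 with the scaling free of MT- and ribosomal protein genes, 63 from 50 CPM, 1964 without a filter, 325 without G2/M-rich cells, and 348 and 473 in the upper 2 ranges. Lower genes numbered 309 with that scaling, 74 from 50 CPM, 1971 without a filter, and 292, 249 and 268 in the ranges.

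Reversed values, as list medians minus that of all genes, were 0.20 depth-matched and 0.61 from 5000 to under 7500 UMIs for nuclear non-coding RNA in control, and -0.03 from 10000 to under 15000 UMIs for metallothioneins in squashed low-complexity over gene-rich cells. For G2/M genes, squashed over control, they were 0.16 with the ceiling of 1200, 0.67 at 10000 UMIs, 0.26 with the ceiling among 5000 UMIs, 0.47 without G2/M-rich cells and 0.89 from 10000 to under 15000 UMIs, where PMEPA1 was at -0.07 and UBE2S at 0.07.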
